A study of Mus musculus with 10 samples.

Results

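Laminins, integrins and other genes of the basement membrane were followed in islets from the pancreas of female mice at 5 weeks of age. The genes were chosen by symbol: every laminin chain and integrin subunit named in the platform annotation, together with Nid1, Nid2, Hspg2, Agrn, Dag1, Fn1 and Vtn. This gave 92 of 45037 probe sets and 42 of 18193 genes. A group of 5 mice was heterozygous for Men1, which encodes the tumour suppressor menin, and the other group consisted of 5 wildtype littermates. Mice of both groups were of the strain described as C57 on a 129 background, and they were untreated as far as the labels say. The construction of the Men1 allele was not stated in the sources used here. About 100 islets were pooled from each mouse, and each RNA sample was hybridised to 1 array. Each replicate is thus a mouse of its own, and p-values weigh a difference against the spread between mice. Islets also hold vessels, stroma and blood cells, and fewer cells of a type and less RNA per cell cannot be told apart in such samples.

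A basement membrane is a thin sheet of matrix under epithelia and around vessels. Laminins, secreted as trimers of an alpha, a beta and a gamma chain, form its first network, and nidogens and the proteoglycans perlecan and agrin tie that network to collagen IV and to cells. Cells hold on to it through integrins, which are pairs of an alpha and a beta subunit, and through dystroglycan. In mouse islets the basement membrane lies along the capillaries, and endothelial cells make much of it. The trimer of Lama4, Lamb1 and Lamc1 is typical of vessel walls, and the chains Lama3 and Lamb3 are typical of epithelia such as skin.

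Values are log2 expression per probe set, and a probe set counted as measured where it lay above 4 on at least 5 of the 10 arrays. Of the 42 genes 26 had such a probe set, and the one with the highest mean stands for the gene below. Levels of different probe sets are not comparable, so each gene is compared with itself across mice. Correlations between arrays ran from r = 0.987 to 0.995 and array medians from 3.28 to 3.40. Each array had between 18458 and 18890 probe sets above 4. The islet label was borne out by Ins2, which encodes insulin, at 16.28 in wildtype and 16.23 in heterozygous islets. Acinar enzyme genes were also high, with Cela3b at 17.08 in wildtype and 17.05 in heterozygous islets. The samples thus held exocrine RNA as well, and its share was not measured. The level of Men1 itself was 6.42 ± 0.30 in heterozygous and 6.89 ± 0.39 in wildtype mice (SD, 5 of each). Its difference of -0.47 (SE 0.20) did not pass limma's test over all probe sets (adjusted p = 0.9999). The lymphocyte marker mean (4 of 13 genes measured) was 6.12 in heterozygous replicate 2 and 5.75 in heterozygous replicate 5, against 3.76 to 4.92 in the other 8 mice. Among heterozygous mice Ighm (SD 2.11) and Ms4a1 (SD 1.54) spread most, beside Cd79a (SD 0.89) and Ltb (SD 0.09).

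The comparison addressed expression in young heterozygous mice beside that of their wildtype littermates. Of the 26 measured genes 18 had a difference below 0 and 8 a difference above 0, written throughout as heterozygous minus wildtype on the log2 scale. This is 69.2%, where 45.6% of all 10538 measured genes lay below 0. Counted by probe set it was 28 of 40, where the background was 43.6%. The median difference of these genes was -0.062, beside 0.014 over all measured genes. With limma 0 of 40 measured probe sets passed an adjusted p of 0.05, where the background was 0% of 18567. An unadjusted p under 0.05 was found for 4 of the 40, with 3 lower (Lama4, Agrn, Nid1) and 1 higher (Itgb8). Over all probe sets 4.09% lay under that value, 1.52% lower and 2.57% higher. With 1 probe set per gene the count was 4 of 26, where the background was 3.67%. The wildtype and heterozygous values did not overlap in 1 of the 40, Lama4, where the background was 0.700%, made up of 0.172% lower and 0.528% higher in heterozygous mice. Without heterozygous replicates 2 and 5 the count below 0 was 16 of 26. Under an adjusted p of 0.05, 0 of the 40 probe sets passed then too. The reach of the 95% interval to each side had a median of 0.38 over the 26 genes, or 1.30-fold, which limits the differences that can be seen. This interval is not adjusted for the number of probe sets, and even Lama4, at -0.60, did not pass the adjusted test.

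**Figure D1:**
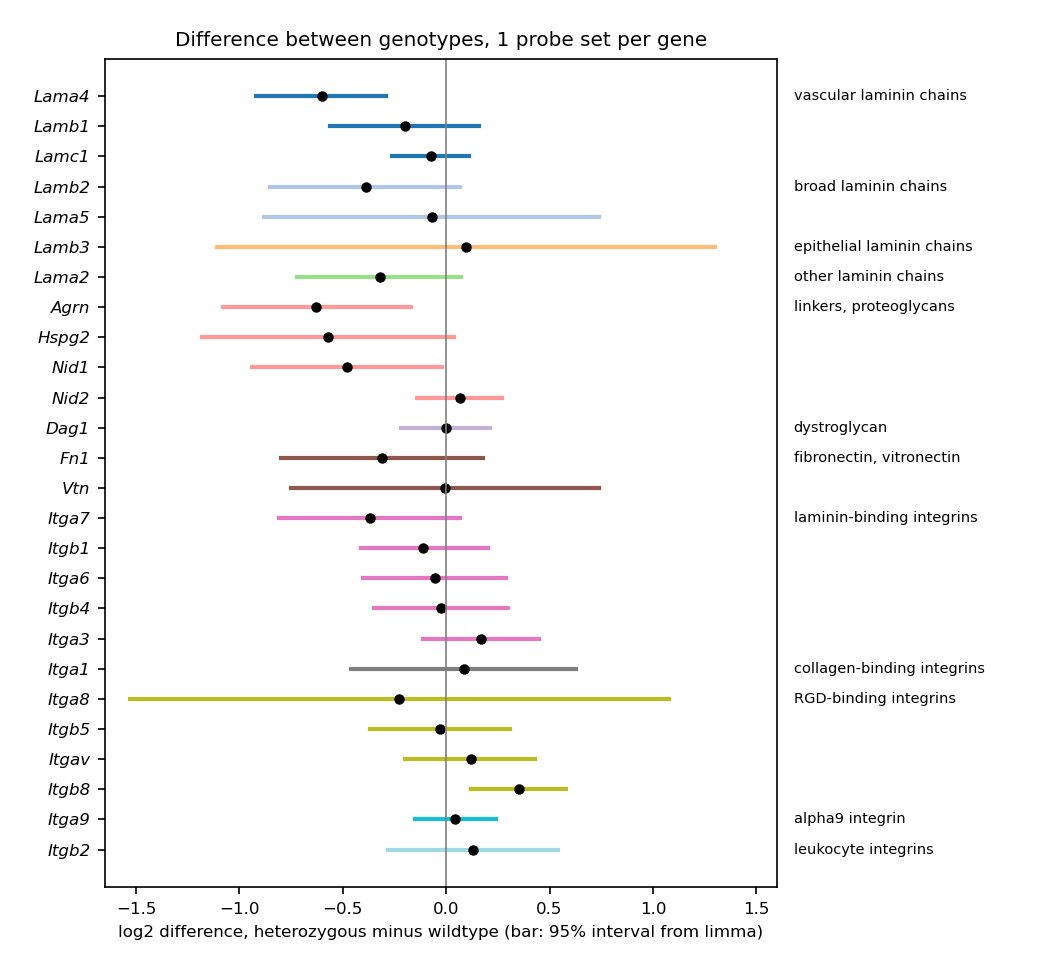
Differences between genotypes for the 26 measured genes (x axis, log2, heterozygous minus wildtype), grouped by role, with points for the estimates and bars for 95% intervals from limma. The intervals of Lama4, Agrn, Nid1 and Itgb8 lie to one side of 0 before adjustment, and those of Itga8 and Lamb3 are the widest.

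Among the vascular laminin chains, Lama4, the alpha chain of vessel walls, showed the clearest separation. In wildtype mice 1 to 5 it stood at 5.21, 5.76, 5.72, 5.61 and 5.54, and in heterozygous mice 1 to 5 at 4.65, 5.02, 4.77, 5.19 and 5.18. Every heterozygous value lay below every wildtype value, although the highest heterozygous value, 5.19, came close to the lowest wildtype value, 5.21. The means were 4.96 ± 0.25 and 5.57 ± 0.22 (SD, n = 5), a difference of -0.60 (SE 0.14, 95% interval -0.92 to -0.29), or 65.8% of the wildtype level. By exact two-sided permutation over all assignments of the 10 arrays p was 0.00794, the smallest value possible with this design. Any probe set whose groups do not overlap gets this value, so it adds nothing to the separation itself. The limma p of 0.00153 became 0.9999 after adjustment over all probe sets, and so Lama4 did not pass. Leaving out single mice moved the difference between -0.69 and -0.53. The values lie little above the limit of 4, and the other Lama4 probe set stayed at background, at 2.20 in wildtype and 2.09 in heterozygous islets.

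Its usual partners did not separate the groups. Lamb1, the beta chain, stood at 8.57, 9.26, 8.93, 8.96 and 8.99 in wildtype and at 8.74, 8.64, 8.38, 9.20 and 8.77 in heterozygous mice. The groups overlapped widely, with heterozygous replicate 4 near the top of the wildtype range. The difference was -0.20 (SE 0.16), and a second measured Lamb1 probe set stood at 0.032. The first was -0.31 without heterozygous replicate 4, -0.11 without heterozygous replicate 3 and -0.12 without wildtype replicate 2. Lamc1, the gamma chain shared by most laminins, was near background in every mouse, at 4.56, 4.42, 4.35, 4.42 and 4.63 in wildtype and 4.43, 4.43, 4.44, 4.31 and 4.38 in heterozygous mice. Its difference was -0.075 (SE 0.084), or -0.037 without wildtype replicate 5, and at this level a change in Lamc1 could not be read. Over the 3 chains the mean per mouse was 6.04 ± 0.15 in heterozygous and 6.33 ± 0.13 in wildtype mice (SD, n = 5), and 3 of 5 heterozygous mice lay below all wildtype mice. With the stromal marker mean, described further on, in the fit, this difference of -0.29 became -0.15.

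Of the epithelial chains Lama3 and Lamb3 only the beta chain Lamb3 was measured, and its values spread widely within both genotypes. Wildtype mice 1 to 5 stood at 7.13, 8.68, 6.60, 7.66 and 6.68, and heterozygous mice at 7.43, 7.81, 8.89, 7.32 and 5.78. The lowest and the highest value both came from heterozygous mice, replicates 5 and 3, and lay 3.11 or 8.61-fold apart. The means were 7.35 ± 0.86 and 7.45 ± 1.12 (SD, n = 5), and the 95% interval of the difference ran from -1.11 to 1.30. The difference of 0.097 was -0.26 without heterozygous replicate 3 and 0.51 without heterozygous replicate 5. Both probe sets of the alpha chain Lama3 lay at background, the higher one between 2.82 and 3.47. The difference between vascular and epithelial chains thus rests on Lama4 on one side and Lamb3 on the other, and no test of it was made.

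**Figure D2:**
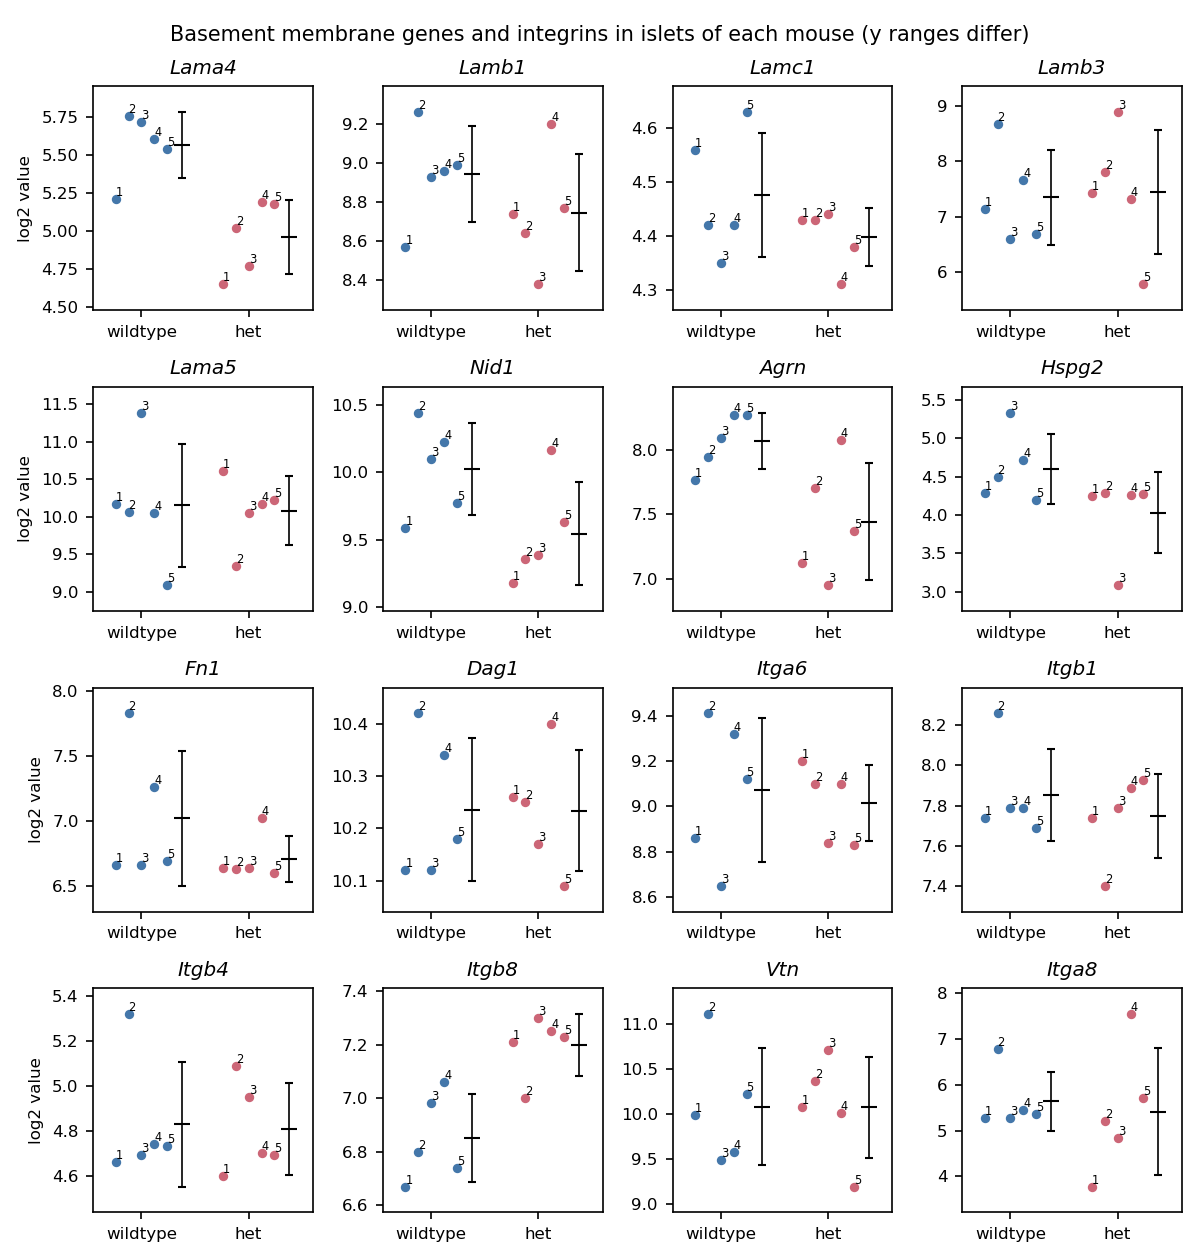
Log2 values (y axis, a separate range for each gene) of 16 genes in the 5 wildtype and the 5 heterozygous mice, each point a mouse with its replicate number, beside the mean and SD of the group. Lama4 is the panel in which the groups do not overlap, Itgb8 has 4 heterozygous mice above all wildtype mice, and heterozygous replicate 4 lies within the wildtype range for Agrn and Nid1.

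Of the remaining laminin chains 3 were measured. Lama5, the main alpha chain of adult epithelia and endothelia, stood at 10.17, 10.06, 11.39, 10.05 and 9.09 in wildtype and 10.61, 9.35, 10.05, 10.17 and 10.23 in heterozygous mice. Its wildtype mice covered the whole range, and the difference of -0.068 (SE 0.37) turned to 0.24 without wildtype replicate 3. Lamb2, the beta chain of nerve-muscle contacts and of vessels, stood between 7.22 and 7.99 in wildtype and between 6.72 and 7.80 in heterozygous mice, with medians of 7.66 and 7.23. The difference was -0.39 (SE 0.21), and heterozygous replicates 1 and 3 lay below all wildtype mice. Lama2, the alpha chain of muscle and mesenchymal basement membranes, stood between 7.04 and 7.67 in wildtype. In heterozygous mice it ranged from 6.56 to 7.43, with 4 of 5 below all wildtype values and a difference of -0.32 (SE 0.18). Lama1, the early embryonic alpha chain, and Lamc3 did not exceed 3.23 in any mouse.

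The linkers and proteoglycans that join laminin to the rest of the matrix held 2 of the 4 genes with an unadjusted p under 0.05. Agrn encodes agrin, a proteoglycan that binds laminin and dystroglycan. It stood at 7.76, 7.94, 8.09, 8.27 and 8.27 in wildtype and at 7.12, 7.70, 6.95, 8.07 and 7.37 in heterozygous mice. Heterozygous replicates 1, 2, 3 and 5 lay below every wildtype mouse, and replicate 4 lay within the wildtype range. The difference was -0.63 (SE 0.20, 95% interval -1.08 to -0.17), or 64.8% of the wildtype level, with a limma p of 0.0112 and an adjusted p of 0.9999. The exact two-sided permutation p was 0.0317. Leaving out single mice moved the difference between -0.78 (without heterozygous replicate 4) and -0.50 (without heterozygous replicate 3), and in no fit that left out a mouse was the adjusted p under 0.395.

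Nid1 encodes nidogen 1, which bridges laminin and collagen IV. It stood at 9.59, 10.44, 10.10, 10.22 and 9.77 in wildtype and at 9.18, 9.36, 9.39, 10.16 and 9.63 in heterozygous mice. Heterozygous replicates 1, 2 and 3 lay below all wildtype mice, and replicate 4 was again the highest of its group. The difference was -0.48 (SE 0.21, 95% interval -0.94 to -0.02), with a limma p of 0.0424, an adjusted p of 0.9999 and an exact two-sided permutation p of 0.0714. A dimmer Nid1 probe set gave -0.22 (SE 0.13). Its relative Nid2 differed by 0.066 (SE 0.092), with 1 heterozygous mouse above all wildtype mice.

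Hspg2, the gene of perlecan, a large heparan sulphate proteoglycan of vessel walls, was dim. It stood at 4.29, 4.49, 5.33, 4.71 and 4.19 in wildtype and at 4.25, 4.28, 3.09, 4.26 and 4.27 in heterozygous mice. Apart from wildtype replicate 3 and heterozygous replicate 3, the values lay between 4.19 and 4.71, close to the limit of 4. The difference of -0.57 (SE 0.28) was -0.34 without heterozygous replicate 3, and its exact two-sided permutation p over all arrays was 0.0873.

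The sequences before the start of Agrn, Nid1 and Itgb8 are shown because these genes had an unadjusted p under 0.05 and a window in the RefSeq table of assembly GRCm38.p6. Of the 42 genes 28 have at least 1 such window. The 250 bases before the start are written 5′ to 3′ on the strand of the gene. Capitals mark GC boxes (GGGCGG) and CACCC boxes (CCACCC), searched on both strands with overlaps counted. For Agrn, with 2 listed starts, the outermost is shown (chr4:156197489-156197738, minus strand). Nid1 lies at chr13:13437352-13437601 on the plus strand, and Itgb8 at chr12:119238277-119238526 on the minus strand.
Agrn: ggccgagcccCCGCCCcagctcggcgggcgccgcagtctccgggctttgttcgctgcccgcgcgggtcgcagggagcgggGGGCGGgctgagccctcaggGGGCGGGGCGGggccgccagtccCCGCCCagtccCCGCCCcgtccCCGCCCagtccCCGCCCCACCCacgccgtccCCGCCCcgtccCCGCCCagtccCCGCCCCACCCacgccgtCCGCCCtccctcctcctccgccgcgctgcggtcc
Nid1: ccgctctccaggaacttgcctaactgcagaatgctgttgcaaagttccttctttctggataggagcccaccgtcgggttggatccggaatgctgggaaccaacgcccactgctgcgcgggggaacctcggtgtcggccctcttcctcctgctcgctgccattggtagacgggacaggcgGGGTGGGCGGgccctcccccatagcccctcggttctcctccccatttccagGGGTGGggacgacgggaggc
Itgb8: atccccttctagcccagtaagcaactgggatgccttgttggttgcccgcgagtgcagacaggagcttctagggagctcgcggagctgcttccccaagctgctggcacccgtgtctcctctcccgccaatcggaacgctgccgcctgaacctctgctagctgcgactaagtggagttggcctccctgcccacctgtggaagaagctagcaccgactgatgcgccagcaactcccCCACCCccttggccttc

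The Agrn window was 83.6% G and C and held 12 GC boxes, some overlapping, and 2 CACCC boxes. The Nid1 window held 1 GC box and 2 CACCC boxes, and the Itgb8 window 0 and 1. A GC box was present in 32.7% and a CACCC box in 28.1% of all 32851 windows of this length. Of the 33 windows of the basement membrane and integrin genes these were 45.5% and 42.4%. A match describes the letters and shows no binding.

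Dag1 encodes dystroglycan, the laminin receptor that links the basement membrane to the cytoskeleton. Its values lay close together in the 10 mice, at 10.12, 10.42, 10.12, 10.34 and 10.18 in wildtype and 10.26, 10.25, 10.17, 10.40 and 10.09 in heterozygous mice. The 95% interval of the difference ran from -0.22 to 0.21. The other 3 measured Dag1 probe sets gave -0.028, -0.087 and -0.22.

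Fibronectin and vitronectin are adhesive glycoproteins bound by integrins. Fn1 stood at 6.66, 7.83, 6.66, 7.26 and 6.69 in wildtype and at 6.64, 6.63, 6.64, 7.02 and 6.60 in heterozygous mice. Wildtype replicates 2 and 4 and heterozygous replicate 4 lay above the other 7 mice, which stood between 6.60 and 6.69. The difference of -0.31 (SE 0.22) was -0.11 without wildtype replicate 2. Vtn ranged from 9.49 to 11.11 in wildtype (median 9.99) and from 9.19 to 10.71 in heterozygous mice (median 10.08). The 95% interval of its difference ran from -0.75 to 0.74, and 2 measured probe sets went in opposite directions. As with Lamb3, the highest Vtn value of the wildtype mice was that of replicate 2, the highest of the heterozygous mice that of replicate 3, and the lowest of all that of heterozygous replicate 5.

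Of 25 integrin genes 12 were measured, 6 with a difference below 0 and 6 above. The laminin receptors came first. Itga6, which pairs with Itgb1 or Itgb4, stood at 8.86, 9.41, 8.65, 9.32 and 9.12 in wildtype and 9.20, 9.10, 8.84, 9.10 and 8.83 in heterozygous mice. All heterozygous values lay inside the wildtype range, and the 95% interval of the difference ran from -0.40 to 0.29. Itgb1, the common beta subunit, stood at 7.74, 8.26, 7.79, 7.79 and 7.69 in wildtype and 7.74, 7.40, 7.79, 7.89 and 7.93 in heterozygous mice. The difference was -0.11 (SE 0.14), and the other 2 measured probe sets gave -0.21 and -0.13. The first was -0.0038 without wildtype replicate 2 and -0.018 without heterozygous replicate 2. Itgb4, the beta subunit of hemidesmosomes in epithelia, stood at 4.66, 5.32, 4.69, 4.74 and 4.73 in wildtype and 4.60, 5.09, 4.95, 4.70 and 4.69 in heterozygous mice. Most of its values were near background, and the difference of -0.024 (SE 0.15) turned to 0.098 without wildtype replicate 2. Itga3 differed by 0.17 (SE 0.13), and Itga7, an alpha subunit of muscle, by -0.37 (SE 0.20).

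Among integrins that bind the RGD motif of matrix proteins, Itgb8 was the 1 gene with an unadjusted p under 0.05 and a higher level. Its product pairs with the alpha v subunit and activates latent TGF-beta. Itgb8 stood at 6.67, 6.80, 6.98, 7.06 and 6.74 in wildtype and at 7.21, 7.001, 7.30, 7.25 and 7.23 in heterozygous mice. In 4 of 5 heterozygous mice it lay above all wildtype mice, with replicate 2 the exception. The difference was 0.35 (SE 0.10, 95% interval 0.12 to 0.58), or 127% of the wildtype level. The limma p of 0.00624 became 0.9999 after adjustment, and the exact two-sided permutation p was 0.0159. Leaving out single mice kept the difference between 0.30 and 0.40. Itgav, the alpha v subunit itself, differed by 0.12 (SE 0.14), with every heterozygous value inside the wildtype range. Itgb5, another partner of alpha v, differed by -0.031 (SE 0.16), and all 4 of its measured probe sets lay below 0.

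Itga8, an alpha subunit of smooth muscle and mesenchymal cells, spread more widely than any other of the 26 genes. It stood at 5.28, 6.79, 5.28, 5.46 and 5.37 in wildtype and at 3.78, 5.20, 4.84, 7.54 and 5.70 in heterozygous mice. Heterozygous mice held both the lowest and the highest value, 3.76 or 13.6-fold apart, and the 95% interval of the difference ran from -1.53 to 1.08. The mural marker mean had its lowest and highest values in the same mice, 7.50 in heterozygous replicate 1 and 9.55 in heterozygous replicate 4. Itga1, a collagen and laminin receptor, differed by 0.085 (SE 0.25). Itga9 was near background, between 4.29 and 4.64.

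Of the leukocyte and platelet integrins Itgb2 alone was measured. It encodes the beta subunit shared by leukocyte integrins and stood at 6.66, 6.73, 6.58, 6.74 and 6.67 in wildtype and 6.65, 7.59, 6.66, 6.66 and 6.48 in heterozygous mice. Heterozygous replicate 2, with the highest lymphocyte marker mean, stood apart from the other 9 mice. The high value of replicate 5 in those markers had no counterpart in Itgb2. Itgal, Itgam, Itgax, Itgae, Itgb7, Itgb2l and the platelet subunit Itga2b did not exceed 3.30 in any mouse. Also at background were Itga2, Itga4, Itga5, Itga10, Itgb3 and Itgb6, with no value above 4.03. For genes at background no difference could be read.

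The 26 genes were set beside 3 lists of related genes. For each list the background over all 10538 measured genes was 45.6% below 0 and 3.67% with an unadjusted limma p under 0.05. Of 17 other basement membrane genes, such as the chains of collagen IV, 14 were measured, with 12 below 0 and 2 above and a median of -0.27. None passed the adjusted test, and 2 had an unadjusted p under 0.05. These were Col15a1, a collagen at the outer face of vessel basement membranes, at 6.11 ± 0.25 against 6.53 ± 0.20 (-0.42, SE 0.14), and Col4a1, a main collagen IV chain, at 11.35 ± 0.24 against 11.69 ± 0.24 (-0.34, SE 0.15; SD, n = 5 each). Of 15 genes of adaptors that tie integrins to actin, 12 were measured, with 7 below 0 and 5 above and a median of -0.026. The smallest p values of that list were those of Ilk (-0.30, SE 0.16) and Vcl, which encodes vinculin (-0.29, SE 0.23). Of 15 genes of the dystrophin complex and of dystroglycan glycosylation, 9 were measured, with 6 below 0 and 3 above and a median of -0.066. The smallest p values there were those of the sarcoglycan genes Sgce (-0.28, SE 0.14) and Sgcb (-0.28, SE 0.14). With limma 0 genes of these 3 lists passed an adjusted p of 0.05, and 2, both named above, were under 0.05 unadjusted.

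The stromal, mural, endothelial and myeloid marker means were lowest in heterozygous replicates 1 and 3, the mice with the lowest Lama4 and Agrn values, and the duct, acinar and beta cell means were not. The stromal marker mean, over 14 measured of 16 genes with no laminin, integrin or linker among them, lay between 8.61 and 9.22 in wildtype mice. It was 7.94, 8.20, 7.67, 9.30 and 8.27 in heterozygous mice 1 to 5. Most of the stromal genes encode matrix proteins, such as Col1a2, Col3a1 and Fbln1, so their mean is not a measure of cells alone. All 14 genes were below 0, where the background for this and the lists below was 45.6% of all measured genes. In the stromal mean 4 of 5 heterozygous mice lay below all wildtype mice, with replicate 4 above them. The mural mean (6 of 8 genes measured, all below 0) ran from 8.63 to 9.31 in wildtype and from 7.50 to 9.55 in heterozygous mice. The endothelial mean (13 of 14 measured, 12 below 0) ran from 7.41 to 7.95 and from 6.93 to 7.72. The myeloid mean (8 of 12 measured, 7 below 0) ran from 6.51 to 6.94 and from 5.85 to 6.70. The duct mean (9 of 12 measured, 7 below 0) ran from 9.49 to 9.99 and from 9.29 to 9.71, and the acinar mean (9 of 10 measured, all below 0) from 15.26 to 15.70 and from 14.99 to 15.52. Among acinar genes Ctrc differed by -0.63 (SE 0.61), and the others by only -0.11 to -0.0016. The beta cell mean (7 of 10 measured, 3 below 0) ran from 12.43 to 13.14 and from 12.49 to 13.09. Most acinar genes, and Ins2 and Iapp of the beta cell list, stood high and spread little. In wildtype mice Cela3b was at 17.08 (SD 0.03), Ins2 at 16.28 (SD 0.07) and Iapp at 16.26 (SD 0.08). Values like these may not show a change in the share of cells, which was not tested. Of the platelet list (8 genes) only Pf4 was measured, between 6.58 and 7.41 in wildtype and between 5.37 and 6.83 in heterozygous mice. Its difference was -0.88 (SE 0.25, adjusted p = 0.9999 in limma). In 4 of 5 heterozygous mice Pf4 lay below all wildtype mice. Among endothelial markers Pecam1 was at background, with no value above 3.01, and Cd3d, Cd3e and Cd3g of T cells did not exceed 2.75.

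**Figure D3:**
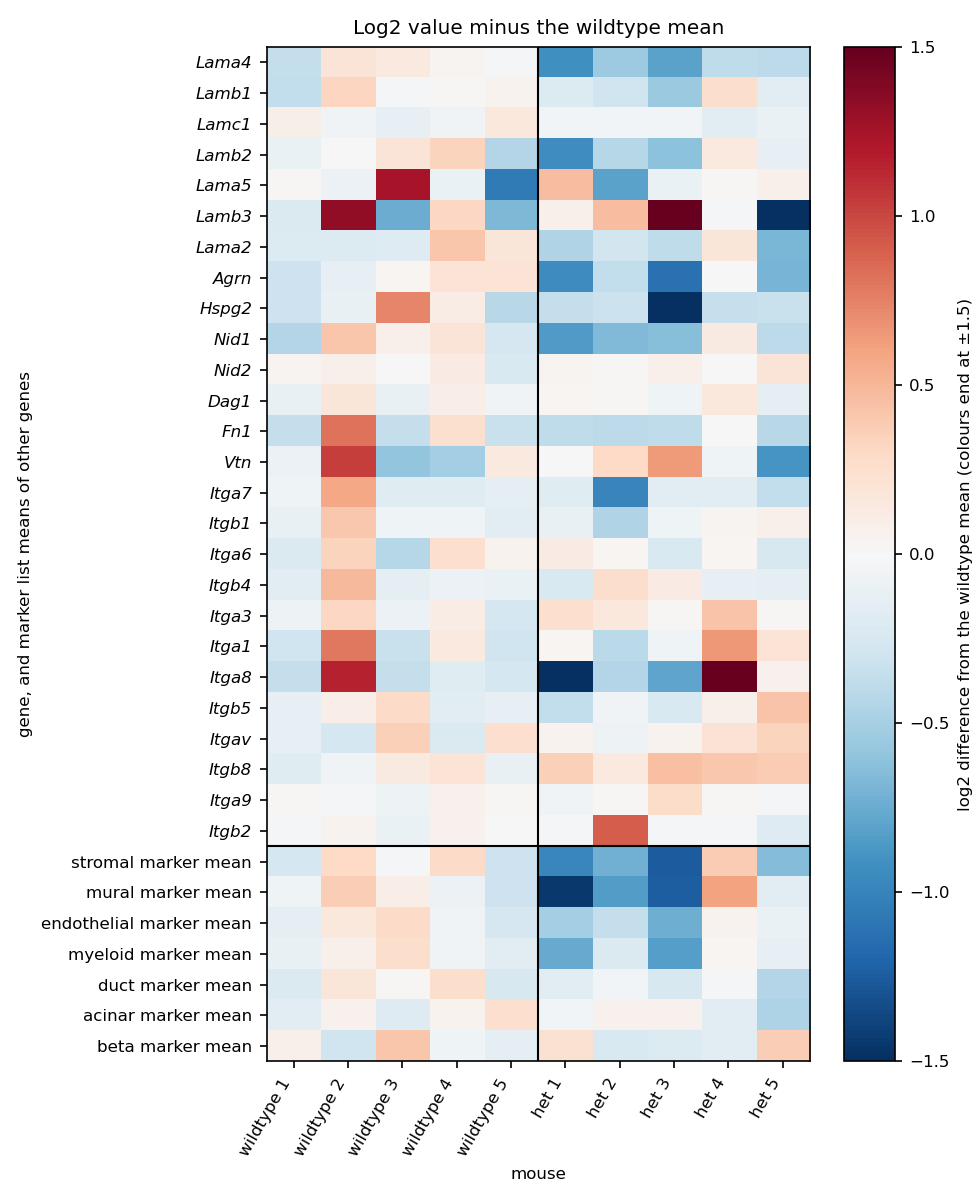
Log2 value of each mouse (columns) minus the wildtype mean, for the 26 measured genes and for 7 marker list means of other genes (rows), with red above and blue below 0. Heterozygous replicates 1 and 3 are blue for Lama4, Lamb2, Agrn and Nid1 and for the stromal, mural, endothelial and myeloid means, and replicate 4 is near 0 or red for most of these.

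The fit was repeated with the stromal or the endothelial marker mean as a covariate. With the stromal mean, 11 of 26 genes had a difference below 0 in place of 18, and with the endothelial mean 14. Lama4 stood at -0.39 (SE 0.15) with the stromal and -0.38 (SE 0.13) with the endothelial mean, against -0.60 without. Agrn stood at -0.25 (SE 0.18) and -0.38 (SE 0.22), against -0.63. Nid1 stood at -0.053 (SE 0.15) and -0.15 (SE 0.18), against -0.48, and Lamb2 at -0.0042 (SE 0.18) and -0.047 (SE 0.18), against -0.39. Itgb8 kept a similar value, at 0.39 (SE 0.13) and 0.38 (SE 0.13), against 0.35. Itga8 moved to 1.01 (SE 0.41) and 0.67 (SE 0.54), against -0.23. None of these had an adjusted p under 0.9999 in limma. The covariates differ between the genotypes themselves, so genotype and marker level are partly confounded in these fits, and the part of the marked cells in the differences was not tested.

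**Figure D4:**
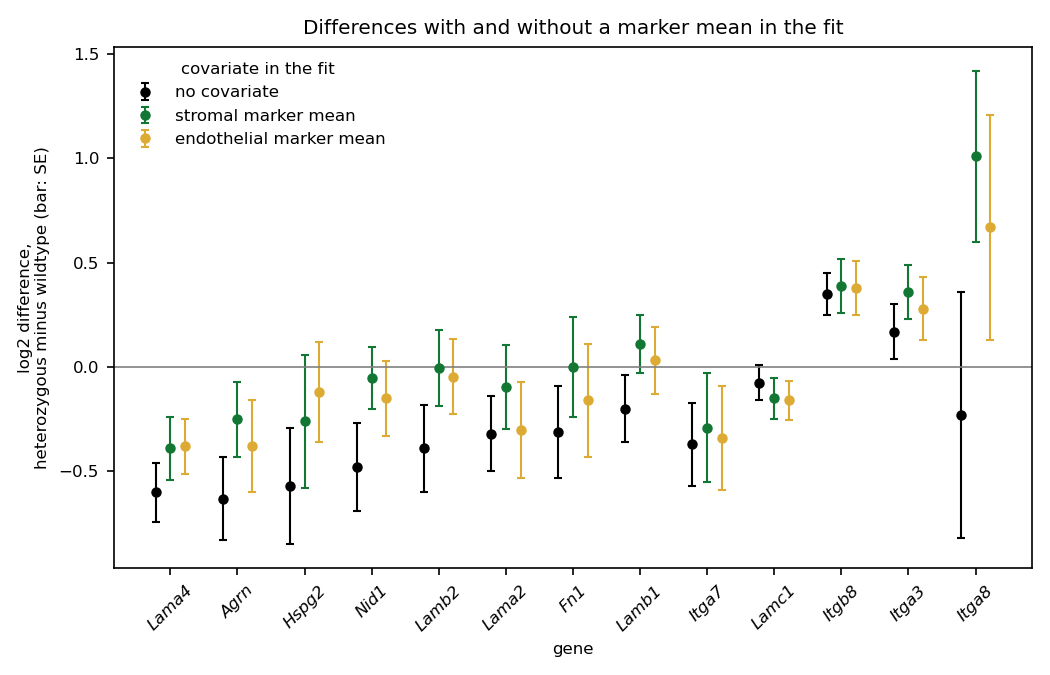
Log2 differences (y axis, heterozygous minus wildtype, bars are SE) of 13 genes (x axis) fitted without a covariate, with the stromal marker mean and with the endothelial marker mean. Nid1 and Lamb2 lie near 0 with the stromal mean, Lama4 remains at -0.39, and Itgb8 lies between 0.35 and 0.39 in all 3 fits.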

How the data were processed

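The deposited values are log2 expression per probe set and array, and the submitters' processing notes name GCRMA (version not given in the sources used here) as the tool the authors used. It adjusts background, normalizes arrays and summarises the probes of a set. RNA (100 ng per sample) was amplified before labelling, per the labels' protocols. Deposited values ran from 0.654 to 17.58, as log2 values do.

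Of 45101 probe sets, 64 controls were left out. The annotation gave 34945 of the rest 1 symbol, 932 several and 9160 none, and only the first were named. Each probe set was fitted in limma 3.58.1 (lmFit, then eBayes; R 4.3.3) on all 10 arrays without covariates, two-sided, with Benjamini-Hochberg adjustment over the 18567 probe sets above 4 on at least 5 arrays. The fit was tested on simulated data. Exact permutation tests used all assignments of the 10 arrays to 2 groups of 5. For genes described because of an unadjusted p under 0.05 or no overlap, they use the same values and are no separate support.

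The genes, lists and alternatives were chosen with earlier results of these data known. Values in every mouse are given for genes with an unadjusted p under 0.05 or no overlap and for a fixed set of laminin chains, linkers and receptors. Vtn, Itga8 and Itgb2 were added after their values were seen. Vtn and Itga8 had wide ranges, and in Itgb2 heterozygous replicate 2 stood apart. The replicate numbers do not pair the mice. Alternatives were the filter, normalization, variance prior, replicate block, the 2 marker covariates, probe sets per gene, threshold, and leaving out each mouse or heterozygous replicates 2 and 5. Motifs were searched with Python 3.11.15, and figures drawn with matplotlib 3.10.9.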

Additional observations from a re-analysis of the deposited data

Results flagged for a closer look

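A mouse was set apart where its distance to the nearest other mouse of its genotype exceeded 0.71 of the range of that group. Of 54 groups checked (26 genes and the vascular chain mean, in both genotypes) 9 met this, or 16.7%, where chance gives about 1 in 20, and genes that vary together are not separate chances. Wildtype replicate 2 stood apart in 4 of them: Itga7 at 6.17 (others 5.40 to 5.52), Itga8 at 6.79 (5.28 to 5.46), Itgb1 at 8.26 (7.69 to 7.79) and Itgb4 at 5.32 (4.66 to 4.74). Heterozygous replicate 3 stood apart in Hspg2 at 3.09 (4.25 to 4.28) and in Itga9 at 4.64 (4.32 to 4.39). Heterozygous replicate 2 stood apart in Itga7 at 4.59 (5.22 to 5.42) and in Itgb2 at 7.59 (6.48 to 6.66). Heterozygous replicate 4 stood apart in Fn1 at 7.02 (6.60 to 6.64). In Hspg2, Itga9, Fn1 and Itgb4 the other 4 mice of the group lay within 0.1 of one another.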

How the results depend on the processing

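With limma no laminin, integrin or linker probe set among those each alternative tested passed an adjusted p of 0.05 (0 in each of 21 alternatives, 1 of which used 0.10 instead). The replicate number as a block changed no call, with 18 of 26 genes below 0 and Lama4 at -0.60. Same-numbered mice did not deviate together, with correlations from -0.284 to 0.108. Lama4, Agrn, Nid1, Hspg2, Fn1, Lamc1 and Itgb8 did not change sign in the alternatives fitted, but with the stromal mean Fn1 was at -0.00024, Nid1 at -0.053 and Hspg2 at -0.26, and with the endothelial mean Hspg2 was at -0.12; the adjusted p of Lama4 ran from 0.409 upwards. A filter at 6 left out Lama4, Lamc1, Hspg2 and Itgb4. With the stromal mean as a covariate the count below 0 was 11, the vascular chain mean -0.15, and signs turned, among the 14 genes given in every mouse by rule, for Dag1 (0.11), Itga6 (0.063), Itgb1 (0.012), Lama5 (0.010) and Lamb1 (0.11). Among the other genes they turned for Itga8 (1.01) and Itgb5 (0.11). With the endothelial mean they turned for Dag1 (0.038), Itgb1 (0.0046), Lama5 (0.27), Lamb1 (0.032) and Lamb3 (-0.36), and among the other genes for Itga8 (0.67), Itgb5 (0.22) and Itga9 (-0.030). Without heterozygous replicates 2 and 5 they turned for Dag1 (0.043) and Lama5 (0.13). The cause was not tested. Leaving out single mice gave 13 to 18 genes below 0, a vascular chain mean of -0.35 to -0.25, and a difference of -0.042 to 0.046 for Dag1, -0.16 to 0.030 for Itga6, -0.096 to 0.098 for Itgb4, -0.33 to 0.24 for Lama5 and -0.26 to 0.51 for Lamb3. The number of arrays limits the precision, and dim values limit what can be read for Lamc1, Itgb4 and Hspg2.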

Other observations

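Lamb3 and Vtn followed the same mice. Over the 10 mice they correlated at r = 0.84 (permutation p = 0.003, adjusted over 11 relations 0.0325) and rho = 0.79 (permutation p = 0.00881, adjusted 0.0242), a relation looked at after the values were seen. The adjustment covers these 11 relations only, and not other genes that could have been paired. Since Vtn and the pair were chosen from these same values, the p-values here describe the pattern and are no separate support for it. Without the 2 mice farthest from the median of Vtn, r was 0.66. Against the beta cell marker mean Lamb3 gave r = -0.75 (permutation p = 0.0118, adjusted 0.0433) and rho = -0.79 (permutation p = 0.00881, adjusted 0.0242), and -0.52 without the 2 farthest mice. Vtn gave r = -0.79 (permutation p = 0.00591, adjusted 0.0325) and rho = -0.87 (permutation p = 0.0023, adjusted 0.0242), and -0.60 without them. Wildtype replicate 3 and heterozygous replicate 5, with the 2 highest beta cell means, were the mice left out of both. Against the acinar marker mean Vtn gave r = 0.66 (permutation p = 0.0393, adjusted 0.108) and rho = 0.81 (permutation p = 0.00598, adjusted 0.0242), with r = 0.58 without the 2 farthest mice. Lamb3 gave r = 0.59 (permutation p = 0.0725, adjusted 0.16) and rho = 0.64 (permutation p = 0.0524, adjusted 0.115), with r = 0.82 without them. The acinar mean moved mainly with Ctrc (SD 1.37 in wildtype, 0.77 in heterozygous mice) and Bhlha15 (0.52 and 0.58). The other acinar genes had SDs of at most 0.17, so these relations are no measure of exocrine share. Against the stromal mean r was -0.08 for Lamb3 (permutation p = 0.815, rho = -0.15 with permutation p = 0.683) and -0.10 for Vtn (permutation p = 0.775, rho = -0.20 with permutation p = 0.583). With the duct mean r was 0.48 for Lamb3 (permutation p = 0.163) and 0.23 for Vtn (permutation p = 0.518). With the endothelial mean r was -0.35 for Lamb3 (permutation p = 0.323) and -0.30 for Vtn (permutation p = 0.389). With 5 mice per genotype no relation was computed within a genotype.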
